A study of Homo sapiens with 6 samples.

Results

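AXL, TYRO3 and MERTK are the 3 TAM receptor tyrosine kinases, and GAS6 and PROS1 encode their secreted ligands. MET, the receptor of hepatocyte growth factor, is a kinase of another subfamily that is often discussed with AXL in drug-tolerant melanoma. These 6 genes were chosen by symbol, and all 6 had a row among the 12558 gene rows of the authors' deposited table. The cells were IGR37, a human melanoma line carrying a piggyBac-inserted, doxycycline-inducible CTNNB1 transgene whose protein, beta-catenin, bears the SV40 large T-antigen nuclear localisation signal at its N-terminus. The doxycycline-induced group had 3 libraries (20 ng/ml for 24 h) and the negative control without doxycycline had 3; both carried the transgene and had been through G418 selection. Whether the line was a clone or a pool, and whether replicates came from separate cultures, is not given in the sources used here; the p-values thus cover only the variation among the 6 samples, which may be technical. The question was what induced nuclear beta-catenin does to the transcriptome.

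TAM receptors bind ligands that hold on to phosphatidylserine, a lipid exposed on dying cells and on activated membranes. GAS6 can activate all TAM receptors and binds AXL most tightly, whereas PROS1, the anticoagulant protein S, activates TYRO3 and MERTK and not AXL. In melanoma, AXL marks the dedifferentiated, MITF-low state, and TYRO3 and MERTK are known from pigmented or proliferating melanoma cells. MET carries growth and motility signals, is a known target of MITF in melanocytes, and has been reported as a beta-catenin target in colorectal tumours.

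The file used here is the authors' comparison, with a fold change, an average level and an edgeR F test for each gene, so no value per library, SD or depth is given. Its header names no samples or groups. Neither the order of division nor that its 2 sides are the labelled groups can be read from it. The comparison is taken here as the labelled one, every fold below rests on that, and whether a fold is an effect of induction was not tested. Signs are therefore kept as deposited: the positive side is the group on top of the deposited fold, the negative side is the group below it, and "higher" and "lower" describe the positive side relative to the negative side. CTNNB1, the gene of the transgene, was 3.89-fold higher (edgeR FDR 1.24e-08) in the authors' deposited table. Its average was 757 CPM, a read count scaled by library size. Whether reads of the transgene are counted in this row is not known here, and the value does not settle the order. The approximate intervals given here come from the size of the log2 fold change and its F value, with 14.03 denominator degrees of freedom. Because the RNA is from whole cultures, fewer cells of a kind and less RNA per cell cannot be told apart.

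Of the 6 genes, 3 were higher (TYRO3, MERTK and PROS1), 2 were lower (AXL and GAS6) and MET did not pass an edgeR FDR of 0.05. Over all gene rows 50.9% passed that threshold, 24.5% higher and 26.4% lower, so a call alone sets none of these genes apart. When log2 fold changes were centred on the 59 spike-in RNAs, whose median was 0.57, the 5 calls and their directions held, MET became lower, and the share of higher genes among all called genes was 17.8% in place of 48.1%. The receptor and ligand that pair most tightly, AXL and GAS6, were both lower, and PROS1 was higher together with both receptors it activates.

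**Figure D1:**
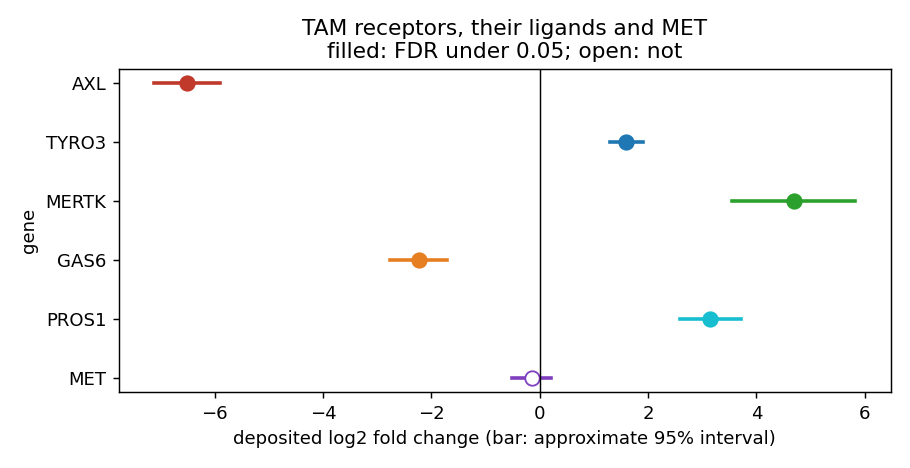
Log2 fold change of the 6 genes as deposited (x axis), with approximate 95% intervals as bars; filled points passed an FDR of 0.05 and the open point did not. AXL (-6.51) and GAS6 (-2.23) lie left of 0, TYRO3 (1.60), MERTK (4.69) and PROS1 (3.15) right of it, and the MET interval (-0.51 to 0.21) spans 0.

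Promoter sequences are shown for the TAM receptors with the most negative and the most positive log2 fold change, because their base composition differs. Capitals mark CpG dinucleotides in the 250 bases before the annotated start (RefSeq, GRCh38.p14), read 5′ to 3′ on the plus strand, at chr19:41218973-41219222 for AXL and chr2:111898357-111898606 for MERTK.
AXL: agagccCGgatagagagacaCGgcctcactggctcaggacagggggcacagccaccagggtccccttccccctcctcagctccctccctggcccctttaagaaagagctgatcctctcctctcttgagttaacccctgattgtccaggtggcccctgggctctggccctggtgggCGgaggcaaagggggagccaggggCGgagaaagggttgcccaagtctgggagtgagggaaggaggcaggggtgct
MERTK: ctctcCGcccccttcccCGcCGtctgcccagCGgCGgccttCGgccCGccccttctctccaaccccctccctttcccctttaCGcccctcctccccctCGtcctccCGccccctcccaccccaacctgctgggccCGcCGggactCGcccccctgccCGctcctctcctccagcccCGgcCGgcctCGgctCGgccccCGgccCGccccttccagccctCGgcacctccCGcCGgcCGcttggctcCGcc
The AXL stretch held 4 CpG dinucleotides and 64.4% G or C bases, and the MERTK stretch held 25 and 78.8%; the median of 35116 promoters was 11 CpG dinucleotides. AXL has another annotated start, whose 250 upstream bases held 13. Those of GAS6, which was lower, held 31, those of PROS1, which was higher, 9, and those of MET 24. The first and second TYRO3 starts had 39 and 8, so these counts did not order the members by direction.

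A set of 4 motifs was searched on both strands in the 300-base windows of the table, from 250 bases before to 50 after each start. They were CATGTG or CACGTG (E-boxes bound by MITF), TGANTCA (AP-1), CATTCC (TEAD) and CTTTGAT (TCF/LEF). Among 35116 promoters 17.6% held the E-box letters, 7.71% the AP-1 letters, 14.0% the TEAD letters and 2.62% the TCF/LEF letters. The members' windows held 4 matches, given here with the matching letters in capitals because they are the stretches a reader would look up for these factors.
MET E-box: aggcagacagaCACGTGctggggcgggc
TYRO3 AP-1: cgagaagaacaTGAATCAgcggcggcgac
AXL E-box: cagatactcaaCACATGcacgtacacac
AXL TEAD: agactttgcacCATTCCactccctccgc
The MET match begins at base 4 after the start (chr7:116672188-116672215). The TYRO3 match begins 220 bases before its first start (chr15:41558981-41559009), and both AXL matches lie before the second AXL start, at 79 bases (chr19:41226665-41226692) and 212 bases (chr19:41226532-41226559). No window of the 6 genes held the TCF/LEF letters, and those of MERTK, GAS6, PROS1, the second TYRO3 start and the first AXL start held none of the 4 motifs; the letters are a description and not evidence of binding.

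AXL, the receptor of the invasive and drug-tolerant melanoma state, was 91.0-fold lower (log2 -6.51, edgeR FDR 2.96e-10) at an average of 156 CPM in the authors' deposited table. The approximate 95% interval ran from 59.6-fold to 139-fold lower. With 3 libraries a side, the average and the fold imply about 3.39 CPM on the positive side and 308 CPM on the negative side. That is the lowest log2 value of the 29 measured receptor tyrosine kinases with reads on both sides, and the 103rd lowest of all 12558 genes. Its average level was above that of 90.2% of genes, so the fold does not rest on a gene at the edge of detection, although its level on the positive side is low. AXL (ENSG00000167601) spans positions 41219223 to 41261766 of chromosome 19 on the plus strand (hg38, GENCODE 44), with 20 exons in its canonical transcript.

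TYRO3, the TAM receptor best known from the nervous system and also expressed in melanocytic cells, was 3.03-fold higher (log2 1.60, edgeR FDR 4.55e-07) in the authors' deposited table. Its interval ran from 2.45-fold to 3.76-fold, and the implied levels were 117 CPM on the positive side and 38.7 CPM on the negative side. TYRO3 was thus measured at a substantial level on both sides, at an average of 77.9 CPM. The gene (ENSG00000092445) lies on chromosome 15, plus strand, from 41557675 to 41583589, and its last annotated exon has 5704 bases. A processed pseudogene, TYRO3P, is annotated elsewhere on the same chromosome; how the authors treated reads shared with it is not given in the sources used here.

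MERTK, the TAM receptor of macrophages that engulf dying cells, was 25.8-fold higher (log2 4.69, edgeR FDR 4.63e-06) in the authors' deposited table, but at an average of only 2.64 CPM. Its interval was the widest of the 6 genes, from 11.7-fold to 56.8-fold. The implied levels were 5.09 CPM on the positive side and 0.197 CPM on the negative side, and 90.5% of genes had a higher average than MERTK. How many reads lie behind the negative side is not known from this table, so the size of this fold is less firm than its direction. Of 10 macrophage markers, which would mark the cell type best known for this receptor, CD68 had a row and the other 9 had none. MERTK (ENSG00000153208) lies on the plus strand of chromosome 2, between 111898607 and 112029561.

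**Figure D2:**
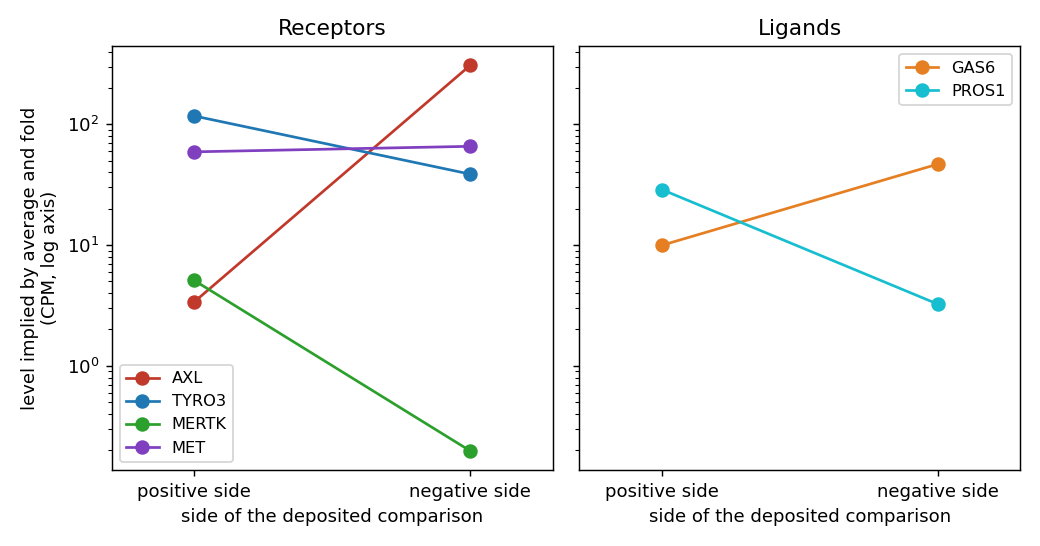
Levels in CPM (log axis) implied by each gene's average and fold on the positive side (left) and the negative side (right), for the 4 receptors and the 2 ligands; each point is a derived group level with no replicate spread. AXL stands at 3.39 CPM on the positive side and 308 CPM on the negative side while TYRO3 slopes the other way, and the lines of GAS6 and PROS1 cross in the same manner.

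Set against each other, the TAM receptors changed place. Of their summed implied level, AXL made up 2.70% on the positive side and 88.8% on the negative side, TYRO3 93.3% on the positive side and 11.1% on the negative side, and MERTK 4.05% on the positive side and 0.0568% on the negative side. TYRO3 was 34.6 times as abundant as AXL on the positive side, whereas AXL was 7.98 times as abundant as TYRO3 on the negative side. These libraries read the 3′ end of each transcript, so CPM was compared between genes without dividing by length. The shares come from ratios within a side and do not depend on how the sides were scaled. The sum of the 3 receptors was 126 CPM on the positive side and 347 CPM on the negative side.

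GAS6, the vitamin K-dependent ligand of all TAM receptors, was 4.70-fold lower (log2 -2.23, edgeR FDR 3.64e-06) in the authors' deposited table, with an interval from 3.26-fold to 6.79-fold lower. The implied levels were 9.95 CPM on the positive side and 46.8 CPM on the negative side. GAS6 (ENSG00000183087) lies on the minus strand of chromosome 13, from 113820549 to 113864076. Its last exon, of 470 bases, is overlapped on the opposite strand by the antisense RNA GAS6-AS1, which has no row of its own. Whether the authors counted by strand is not given in the sources used here, so reads of that RNA cannot be told apart from those of GAS6.

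PROS1, which encodes protein S, was 8.88-fold higher (log2 3.15, edgeR FDR 1.89e-07) at an average of 16.0 CPM in the authors' deposited table. The interval ran from 6.02-fold to 13.1-fold, and the implied levels were 28.8 CPM on the positive side and 3.25 CPM on the negative side. Of the summed ligand level PROS1 held 74.3% on the positive side and 6.49% on the negative side, GAS6 the remainder. The summed ligand level was 38.8 CPM on the positive side and 50.04 CPM on the negative side, a difference of 1.29-fold that is smaller than that of either ligand. PROS1 (ENSG00000184500) spans 93873051 to 93980003 on the minus strand of chromosome 3; the unprocessed pseudogene PROS2P, on the same chromosome, resembles it, and how shared reads were counted is not given in the sources used here.

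MET was measured well on both sides and did not pass: its log2 fold change was -0.15 (edgeR FDR 0.475) at an average of 62.4 CPM in the authors' deposited table. The implied levels were 59.2 CPM on the positive side and 65.7 CPM on the negative side. The approximate interval, from 1.43-fold lower to 1.16-fold higher, leaves room for a modest difference in either direction. Centred on the spike-ins the value was -0.72 with a recomputed FDR of 0.0018, so the MET call depends on the scale chosen. MET (ENSG00000105976) lies on chromosome 7, plus strand, at 116672196 to 116798377, with 21 exons in its canonical transcript. MET was 17.5 times as abundant as AXL on the positive side, whereas AXL was 4.69 times as abundant as MET on the negative side.

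**Figure D3:**
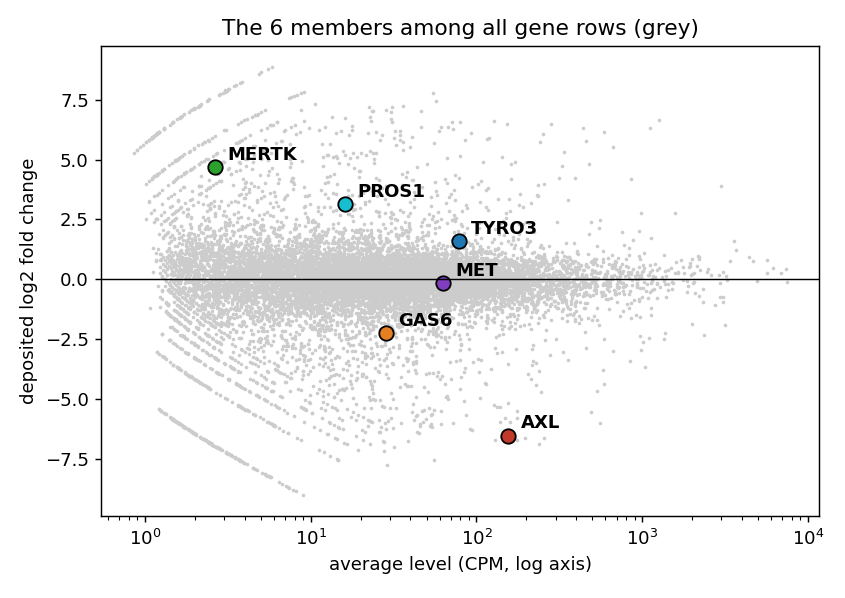
Deposited log2 fold change (y axis) against average level in CPM (log x axis) for all gene rows (grey dots) and the 6 genes (coloured). AXL stands far below 0 at a high average level, MERTK stands high among genes of low level, and MET lies within the central band.

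Among receptor tyrosine kinases, 30 of 58 had a row. Of these 30, 10 were higher, 13 were lower and 7 did not pass, with a median log2 fold change of -0.19 (-0.15 without FLT1) against -0.01 over all genes. Thus 76.7% of the measured kinases passed, against 50.9% of all genes. The neuregulin receptor ERBB3 was 136-fold higher, and the ephrin receptor EPHB2 was 62.8-fold, the ephrin receptor EPHB3 9.80-fold and the collagen receptor DDR1 6.13-fold lower in the authors' deposited table. FLT1, a VEGF receptor named after its value was seen, had a lower deposited value than AXL but no reads on 1 side, as judged from its degrees of freedom, and is given no fold. By implied level AXL ranked first of 29 kinases on the negative side, with 22.0% of their sum, and 18th on the positive side, with 0.44%. TYRO3 ranked first on the positive side, with 15.2%, and 10th on the negative side, with 2.76%. MET ranked 5th on the positive side and 7th on the negative side.

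**Figure D4:**
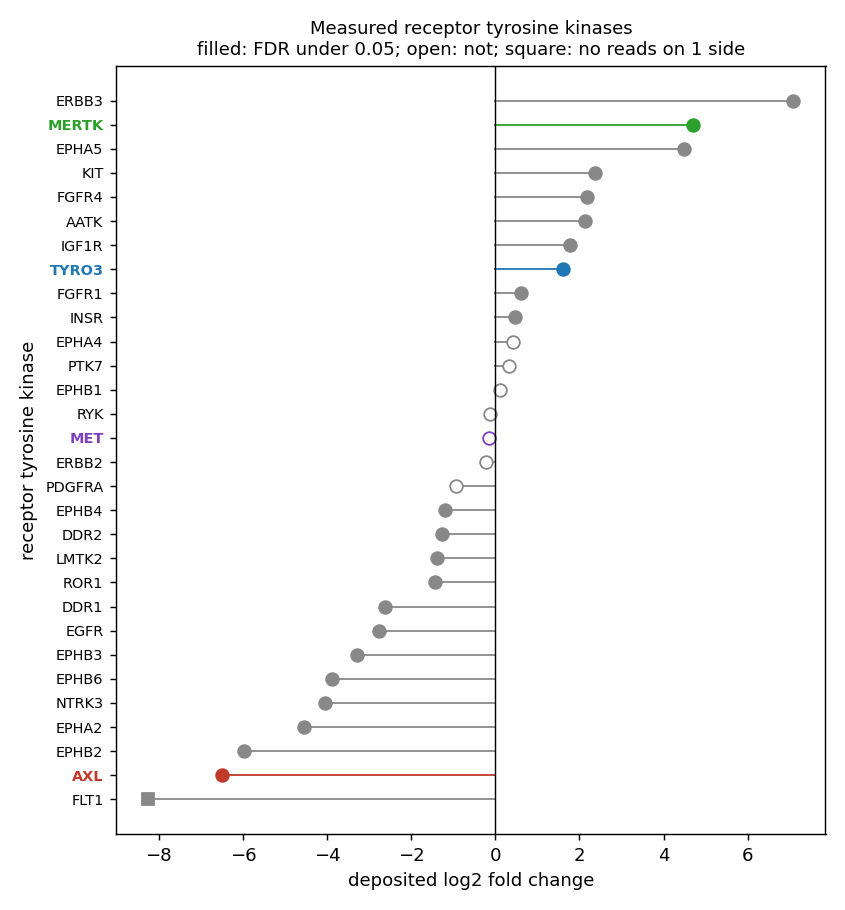
Deposited log2 fold change of the 30 receptor tyrosine kinases with a row (x axis), ordered by value. Filled symbols passed an FDR of 0.05 and open ones did not. The square had no reads on 1 side, as judged from its degrees of freedom. AXL and FLT1 stand at the lower end, MERTK is second from the top after ERBB3, and MET lies near 0.

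Both ligands must be gamma-carboxylated on glutamate with the help of vitamin K before they can bind membranes, and genes of that step were measured on both sides. Of 6 measured genes for carboxylation and processing, 1 was higher and 1 lower (median log2 0.04), or 0 higher and 5 lower after spike-in centring. As deposited, 33.3% of this list passed, against 50.9% of all genes. For GGCX, the carboxylase, mentioned after its value was seen, the authors' deposited table gave a log2 value of -0.03 (edgeR FDR 0.913). VKORC1, which recycles vitamin K, was 1.43-fold lower and CALU, an inhibitor of carboxylation, 1.61-fold higher in the authors' deposited table; CALU no longer passed when centred. NQO1, a quinone reductase, and VKORC1L1, a relative of VKORC1, had log2 values of -0.18 and 0.19 in the authors' deposited table and did not pass; the sign of VKORC1L1 turned when centred. Of 5 measured genes for other TAM ligands, shedding and phosphatidylserine exposure, 3 were higher and 1 lower (median 1.27), so that 80% passed. Galectin-3 (LGALS3), described as a MERTK ligand, was 3.69-fold higher, the phagocytosis ligand TUB 3.52-fold higher, ADAM10, a protease that sheds AXL and other receptors, 2.41-fold higher and the scramblase ANO6 1.93-fold lower in the authors' deposited table.

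HGF, the ligand of MET, had no row, nor did HGFAC, ST14, HPN, PLAU, SPINT1 or SPINT2, which activate it or restrain its activation. The measured members of that list were both higher, PLAT, the tissue plasminogen activator, 2.30-fold and MST1, a relative of HGF that binds another receptor, 2.53-fold in the authors' deposited table. Over all genes 24.5% were higher. MST1 has close copies with rows of their own, MST1L and MST1P2, among which reads may be split, and its call was lost after spike-in centring. Of 13 measured coreceptors and brakes of MET, 7 were lower and 0 higher (median -0.85), against 26.4% lower over all genes. NRP1, a coreceptor, was 64.1-fold lower, CD44, which presents HGF to MET, by 3.72-fold, the integrin subunit ITGA6 2.32-fold and PLXNB2, a plexin that can pair with MET, 1.81-fold lower in the authors' deposited table. LRIG1, a receptor brake chosen for mention after its value was seen, stood 3.68-fold lower in the authors' deposited table. CBL, the ubiquitin ligase that sends MET for degradation and likewise picked out later, had a log2 value of 0.34 in the authors' deposited table and did not pass.

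Of 22 measured adaptors and downstream genes, 4 were higher, 6 lower and 12 did not pass (median -0.25), against 2 higher and 16 lower after spike-in centring. As deposited, 45.5% of this list passed, against 50.9% of all genes. GAB2, a docking adaptor, was 14.6-fold higher and NCK2 2.65-fold higher, whereas SOCS1, a cytokine feedback inhibitor induced by TAM signalling in dendritic cells of mice, was 15.6-fold lower and the exchange factor VAV2 2.39-fold lower in the authors' deposited table. GRB2, PTPN11 and SHC1, which couple receptors to RAS and were picked out after their values were seen, had log2 values of -0.39, 0.04 and -0.09 in the authors' deposited table and did not pass.

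Factors linked to transcription of AXL or MET went both ways, 6 higher and 6 lower of 17 (median 0.04). As deposited, 70.6% of the 17 passed, against 50.9% of all genes. Centred on the spike-ins, 10 were lower. MITF, the melanocyte lineage factor, was 18.6-fold and SOX10 78.0-fold higher, whereas the AP-1 subunit JUN was 13.3-fold and HIF1A 3.81-fold lower in the authors' deposited table. The rest of the AP-1 and TEAD members of the list were added to the account after their values were seen. Of the other AP-1 subunits FOSL1 was 5.66-fold lower, FOS was 4.47-fold higher, and JUNB and FOSL2 did not pass (log2 -0.28 and 0.41) in the authors' deposited table. Of the TEAD factors and their coactivators, YAP1 was 1.58-fold and TEAD4 1.46-fold lower, and WWTR1 and TEAD1 did not pass (log2 0.17 and 0.04) in the authors' deposited table; after spike-in centring all 4 were lower. Genes reported with AXL in dedifferentiated melanoma were lower in 21 of 22 cases and higher in 0 (median -2.63), against 26.4% lower over all genes. SLC16A3, a lactate exporter, was 46.3-fold, IGFBP3 63.9-fold, NNMT 62.0-fold and ANGPTL4 117-fold lower in the authors' deposited table; UGP2 was the member that did not pass. This list was chosen with results of these data known and is not independent evidence of a direction. Of 9 measured genes reported as beta-catenin targets, MET among them, 3 were higher and 4 lower (median -0.15, or 0.25 without SP5). SP5 was lower with no reads on 1 side, as judged from its degrees of freedom. Of the 9, 77.8% passed, against 50.9% of all genes. TNFRSF19 was 29.1-fold and LEF1 26.9-fold higher, DKK1 76.0-fold and TCF7 7.30-fold lower in the authors' deposited table. Of the others, named after their values were seen, NKD1 was 11.6-fold higher and ZNRF3 2.28-fold lower. AXIN2, at log2 0.65 (edgeR FDR 0.230) and an average of 2.37 CPM, did not pass.

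Markers of cell identity also differed between the sides, in a comparison where 50.9% of all genes passed. All 8 measured pigment cell markers of 9 were higher, with a summed implied level of 8275 CPM on the positive side and 125 CPM on the negative side, so that a line labelled melanoma showed little pigment cell RNA on the negative side. Whether both sides are the labelled groups of 1 line was not tested, and neither side is named. In the authors' deposited table DCT was 102-fold, MLANA 67.1-fold and TYR 88.4-fold higher. Of 7 measured fibroblast markers of 10, 5 were lower and 1 higher (17.7 CPM on the positive side and 414 CPM on the negative side), and 5 of 5 measured epithelial markers of 8 were lower. The collagen genes COL3A1, COL1A2 and COL1A1 were 107-fold, 61.7-fold and 60.2-fold lower and POSTN 78.6-fold lower in the authors' deposited table. LUM, of the same list, went the other way, 8.59-fold higher (edgeR FDR 7.07e-05) at an average of 3.16 CPM, and PDGFRA did not pass. Both were named after their values were seen. Of the epithelial markers, KRT15, KRT8 and TP63 had no reads on 1 side, as judged from their degrees of freedom. KRT18 and DSP together stood at 5.95 CPM on the positive side and 363 CPM on the negative side. Both measured endothelial markers of 6 were lower (1.49 CPM on the positive side and 10.1 CPM on the negative side), and CD68 stood at 11.5 CPM on the positive side and 5.93 CPM on the negative side. EPCAM, VWF, PTPRC and CD14 had no row. The part of these shifts in the receptor and ligand values was not tested.

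The genes around AXL, TYRO3, MERTK, GAS6 and MET did not follow a common direction from one member to the next. A gene was counted if any part of it lay within 500 kb of either end of the member. For comparison, 24.5% of all genes were higher and 26.4% lower. Within 500 kb of AXL, 3 of 10 measured genes were higher and 3 lower (median 0.11), among them TGFB1, 15.5-fold lower, and MIA, a secreted melanoma protein, 29.9-fold higher in the authors' deposited table. Around TYRO3, 7 of 13 genes were higher and 0 lower (median 0.51, under the 0.57 of the spike-ins). As deposited, every TYRO3 neighbour that passed thus went the same way as TYRO3. RPAP1, the nearest to TYRO3 by start, was 3.42-fold and MAPKBP1 3.78-fold higher in the authors' deposited table. Whether position plays a part was not tested. MERTK had 1 of 6 neighbours higher and 0 lower (median 0.34). GAS6 had 3 of 10 neighbours higher and 1 lower (median 0.43). MET had 1 of 6 neighbours higher and 3 lower (median -1.56). Of these, CAV1 was 20.8-fold, TES 4.23-fold and CAV2 3.97-fold lower and ST7 4.76-fold higher, while CAPZA2, the nearest by start, and ST7-AS1 did not pass (log2 -0.25 and -1.14) in the authors' deposited table. Neighbours were named after their values were seen.

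**Figure D5:**
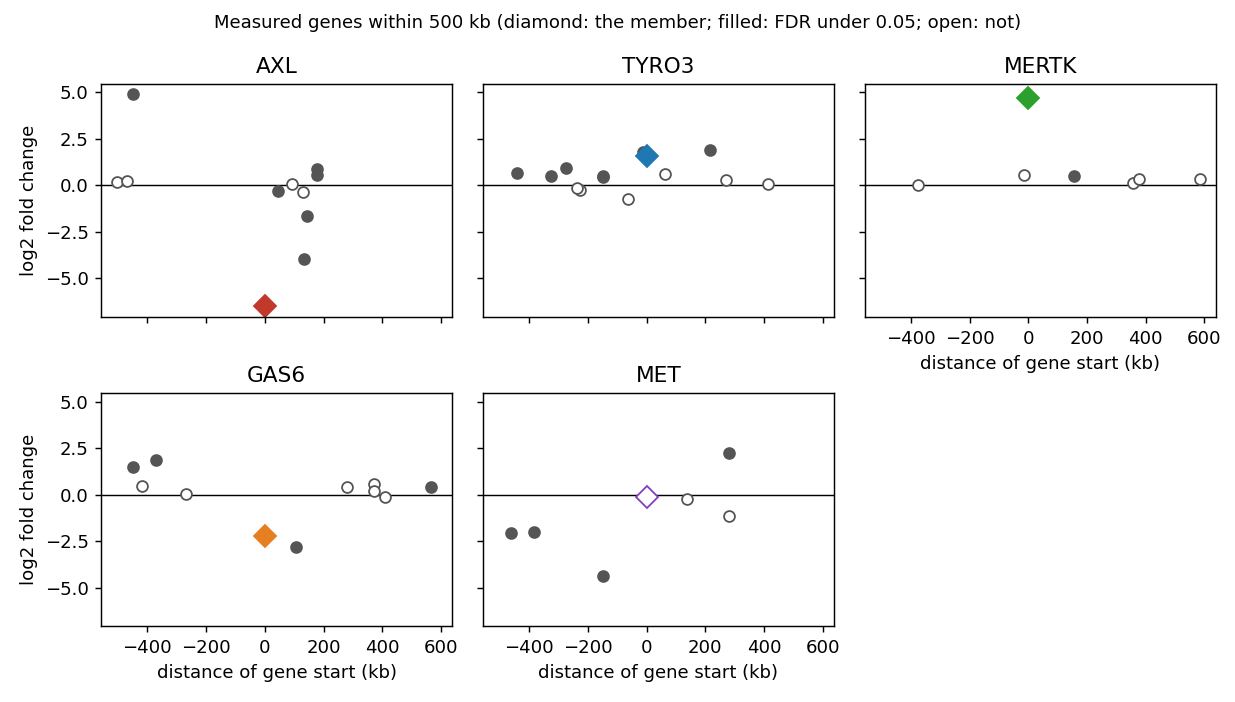
Log2 fold change as deposited (y axis) of measured genes with any part within 500 kb of either end of AXL, TYRO3, MERTK, GAS6 or MET. The x axis is the distance of their start from the member's start in kb, positive in the direction of transcription. A start can thus lie beyond 500 kb. The diamond is the member, and filled symbols passed an FDR of 0.05. AXL lies below all of its plotted neighbours, MERTK lies above all of its own, and TYRO3 lies near RPAP1 and MAPKBP1.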

How the data were processed

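RNA from 6 libraries was sequenced from 500 ng per sample with a 3′-end kit, per the labels' protocols. The authors used STAR, edgeR and build hg38, per the submitters' processing notes; tool versions, annotation, strand setting and low-count filter are not given here. The authors' file headers name a log2 fold change, its linear ratio, an average log2 CPM, a test score (F), a p-value and an FDR, all as deposited. Recomputed Benjamini-Hochberg values over the 12617 rows equalled that FDR. The design foresaw counts; with none, the authors' test was used as written there.

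Python 3.11.15 with numpy 2.4.6, pandas 2.3.3, scipy 1.17.1 and matplotlib 3.10.9 was used. The standard error was taken as the absolute log2 fold change over the root of F, and intervals used 95% t quantiles; they are approximate. Implied levels assume that the average CPM is the mean of both sides and are rough for low genes. Denominator degrees of freedom were solved from F and p. A loss of 2 was taken to mark genes without reads on 1 side, and no member had such a loss. The solving of degrees of freedom, the Benjamini-Hochberg step and calls after a known shift were tested on simulated data. Implied levels were checked by arithmetic only, and whether a loss of 2 marks genes without reads was not tested. Depth is unknown, so no interval for counting error is given. The members and lists were chosen with earlier results of these data known. Named genes are the 6 members, the 4 smallest p-values of each list, and those said to be chosen after their values were seen. Gene positions are from GENCODE 44, matched by symbol. Protein sequences are not used here. The genes next to PROS1 are not reported here.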

Additional observations from a re-analysis of the deposited data

How the results depend on the processing

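AXL, TYRO3, MERTK, GAS6 and PROS1 kept their direction and stayed past the threshold under every setting tried: centring on the spike-ins or on all genes, an FDR under 0.01, a 2-fold minimum, adjustment without spike-in rows, minimum averages of 1 or 10 CPM (at 10 CPM MERTK was not tested) and 4 denominator degrees of freedom. Every setting reused the deposited fold, F and p, so other processing of the reads was not tested. Their log2 values were at least 1.60 in size, so a shift of 0.57 could not turn a sign and the 2-fold minimum was met beforehand. Their deposited edgeR FDRs were at most 4.63e-06, so an FDR under 0.01 was also met beforehand. The median of all genes was -0.01, and few rows were dropped without spike-ins or under 1 CPM, so these settings could hardly alter the calls. Centring on the spike-ins gave MET -0.72, past the threshold, and turned the signs of VKORC1L1 (-0.38), CBL (-0.23), FOSL2 (-0.16), WWTR1 (-0.40), TEAD1 (-0.53) and PTPN11 (-0.53); the cause was not tested. Over all genes 6398 passed as deposited, 4140 with 4 degrees of freedom and 3632 with at least 2-fold.

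Only the larger changes in count are listed here, so a list left out may have changed a little. Among lists, spike-in centring gave 0 higher and 5 lower for carboxylation, 1 higher for HGF activation, and 2 higher and 16 lower for adaptors. It also gave 10 lower for transcription regulators and 0 higher for macrophage markers. The 2-fold minimum gave 0 higher and 0 lower for carboxylation, 0 lower for other TAM ligands and 0 higher for macrophage markers. With 4 degrees of freedom there were 0 lower for carboxylation, 0 lower for other TAM ligands, 1 higher for HGF activation, 0 higher for macrophage and 1 lower for endothelial markers. An FDR under 0.01 left 1 higher for HGF activation. A minimum of 10 CPM, which tests fewer genes, left 6 kinases lower, 4 MET coreceptors and brakes lower, 1 higher for HGF activation, 0 higher for macrophage and fibroblast markers, 0 lower for endothelial and 1 lower for epithelial markers.

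No paired analysis was possible because the table holds no value per library; for the same reason leaving out replicates and DESeq2 were not run.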
